A study of Mus musculus with 6 samples.

Results

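Genes that cut, protect and cross-link the extracellular matrix were followed in C2C12 cells, an immortalised mouse myoblast line, in which one of 2 subunits of the SWI/SNF chromatin remodelling enzymes had been knocked down. The set holds the 56 of 27179 genes in the deposited tables whose symbols name a matrix metalloproteinase (23 Mmp genes), an ADAMTS protease (19), an ADAMTS-like protein (5), a tissue inhibitor of metalloproteinases (4 Timp genes) or a lysyl oxidase (5 Lox genes). The rule for the members uses the symbol alone and no measured value, although the set was picked with earlier results of these data known. The groups were cells with an shRNA against BAF250A, cells with an shRNA against BRD9 and cells with a non-targeting scrambled shRNA, with 2 libraries each, which the design text calls biological duplicates. Each construct was stably transfected, so the controls carry an shRNA construct too, and the sources used here do not say whether a line is 1 clone or a pool. All cells had been kept for 48 h in differentiation medium with 2% horse serum and 2 µg/ml insulin. The title of the series asks whether BAF, the form that contains BAF250A, and ncBAF, the form that contains BRD9, are needed differently when muscle cells differentiate.

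Matrix metalloproteinases are zinc-dependent enzymes, mostly secreted as inactive precursors, that between them can cut every major protein of the matrix. The collagenases open fibrillar collagen, the gelatinases cut denatured and basement membrane collagen, the stromelysins have broad targets, and the membrane-type enzymes act at the cell surface. TIMP proteins block these enzymes. ADAMTS proteases cut proteoglycans or trim procollagen, ADAMTS-like proteins share their ancillary domains but lack the protease, and lysyl oxidases make the cross-links that stiffen collagen and elastin. In muscle this machinery remodels the matrix while myoblasts migrate, fuse and repair fibres.

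The tables give no counts per library. Whole reads of each library could be solved from their means and fold changes for all 54 members that had any read. Libraries 1 and 2 of a group are numbered by size factor and cannot be tied to the replicate letters. Levels below are normalised reads, which are reads divided by the library's size factor. Solved reads summed to between 23995375 and 24869904 in the 4 knockdown libraries and to 39610421 and 34991714 in the scrambled libraries. Counts of 1 to 20 reads were even in 78.1% to 80.9% of cases in the knockdown libraries, against 57.6% and 59.5% in the scrambled ones. Counts over 100 were even in 55.9% to 59.6% of cases in the knockdown libraries, against 50.2% and 49.9% in the scrambled ones. These differences fall between the same groups as the comparisons and cannot be told apart from them. The targeted genes were lower in their own knockdown: Arid1a, which encodes BAF250A, had 1269 and 1003 normalised reads in BAF250A knockdown against 6214 and 3100 with scrambled shRNA, and Brd9 had 180.4 and 363 in BRD9 knockdown against 759.9 and 983. The muscle markers Des, the muscle intermediate filament, and Myod1, a myogenic regulator, averaged 138937 and 6391 normalised counts over the 4 libraries of the BAF250A comparison in the authors' deposited table. Of 7 muscle markers 5 were lower with BAF250A (Myog, Myf5, Myh3, Ckm and Acta1), and with BRD9 Myf5 was lower and Myod1 higher, by the Wald test of the authors' deposited tables. Of 4 fibroblast markers 3 were higher with BAF250A (Pdgfra, Thy1 and Col1a1) and 1 with BRD9 (Col1a1). Thy1 had 23.2 and 12.1 normalised reads in BAF250A knockdown, against 0.604 and 1.74 with scrambled shRNA. It passed the filter on low counts through the BAF250A libraries alone. The part of the muscle and fibroblast markers in the results below was not tested.

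Proteases of the matrix moved in both directions in BAF250A knockdown, and fewer passed the test in BRD9 knockdown. With BAF250A, 27 of the 45 members tested passed the Wald test at an adjusted p below 0.05 (the authors' deposited table), 14 higher and 13 lower than with scrambled shRNA. Across all genes tested there, 28.7% were called, 11.2% higher and 17.5% lower. With BRD9, 14 of 47 members passed (the authors' deposited table), 8 upwards and 6 downwards, where 14.4% of all genes were called, 5.11% higher and 9.33% lower. A limma fit of the solved reads called 24 members with BAF250A, 13 higher and 11 lower, where it called 26.9% of 14025 genes, 11.5% higher and 15.4% lower. With BRD9 it called 14 members, 8 higher and 6 lower, where it called 16.3% of genes, 6.94% higher and 9.39% lower. The median log2 fold change of the members was -0.07 with BAF250A, beside -0.18 over all genes tested, and 0.14 with BRD9, beside -0.15. Over genes with a mean of 100 or more it was 0.03 with BAF250A and 0.05 with BRD9. Setting members that were at 0 in a knockdown at their lower bound left both medians of the members as they were. It could not do otherwise, since the deposited values and the bounds of the tested ones both lay below the median. When each Wald score was divided by the robust SD of all Wald scores of its table, 2.18 for BAF250A and 1.58 for BRD9, 5 and 8 members were called. Under a Bonferroni adjustment 17 and 8 were called. Both settings are stricter for every gene, and the share of all genes they call is not given here. These counts therefore do not set the members apart from other genes. The remaining members were 19 that were tested but not called in either comparison and 9 that had no adjusted p in either, of which Mmp1a and Mmp1b had no read in any library.

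**Figure D1:**
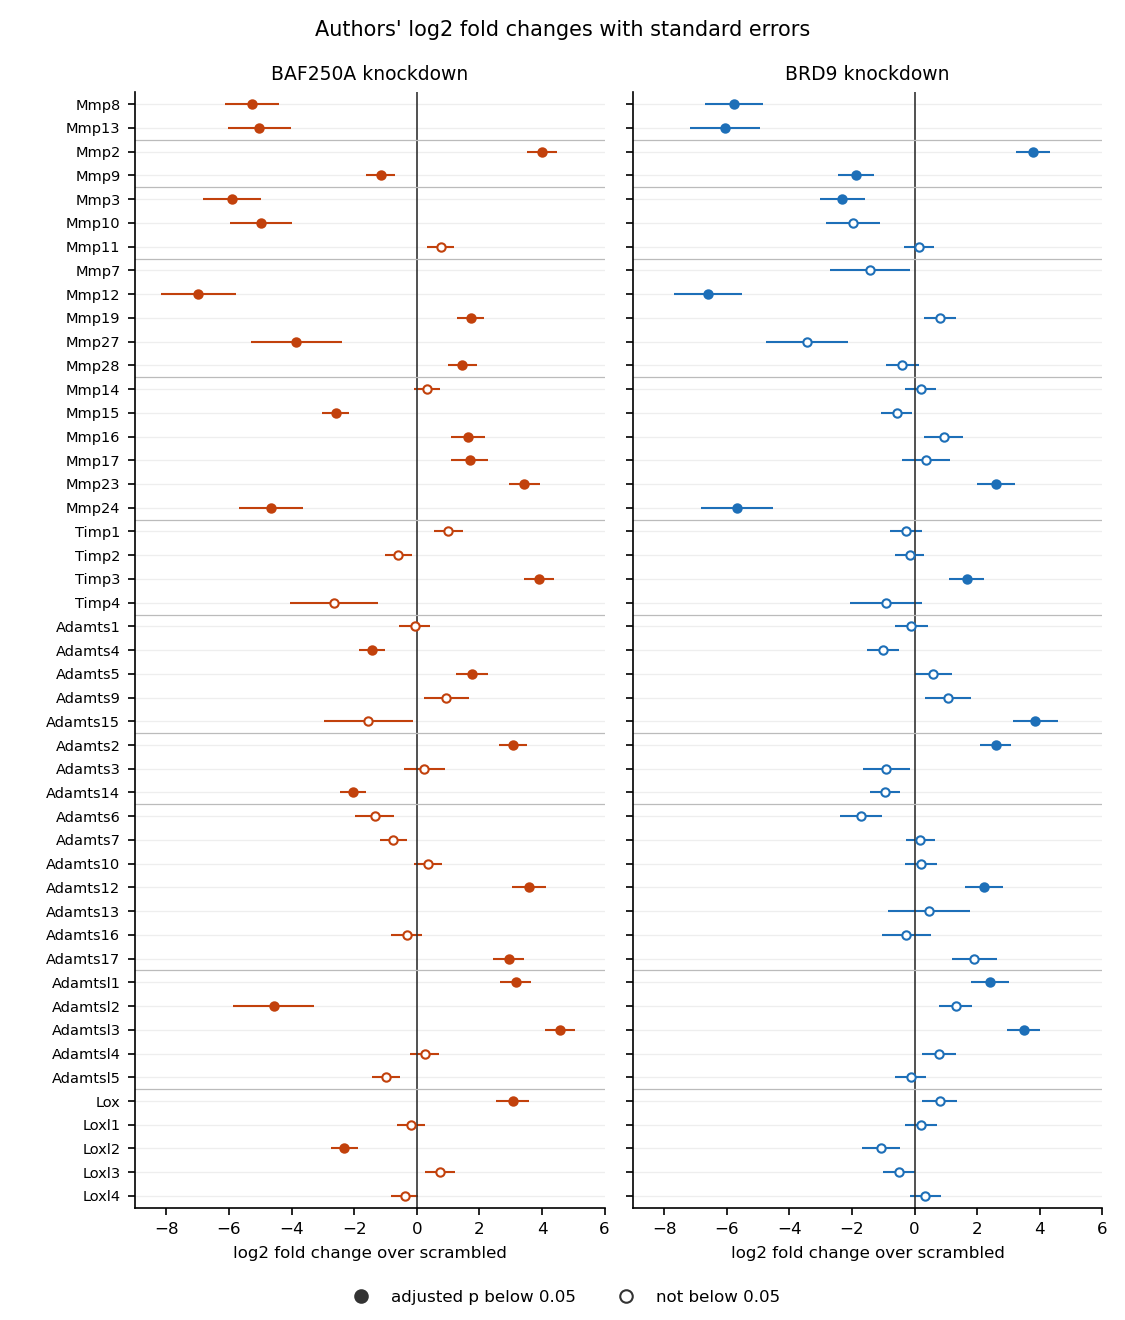
Authors' log2 fold changes (x axis) over scrambled shRNA, with standard errors as bars, for each member with an adjusted p in BAF250A knockdown (left, 45 members) or BRD9 knockdown (right, 47 members), ordered by role. Filled points passed the Wald test at an adjusted p below 0.05, which 27 members did with BAF250A and 14 with BRD9, and the open points include Lox, Mmp10 and Adamts17 with BRD9.

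The 6 libraries also show how far duplicates differ. Among the 43 members with a mean of 10 or more normalised reads, the duplicates differed by a median of 1.12-fold in BAF250A knockdown, 1.44-fold in BRD9 knockdown and 1.61-fold with scrambled shRNA. Over all 14025 solved genes at that level the medians were 1.13-fold, 1.38-fold and 1.79-fold. Both BAF250A libraries lay above both scrambled libraries for 20 of the 43 members and below both for 17, beside 31% and 34.6% of all such genes. Both BRD9 libraries lay above for 15 members and below for 13, beside 24.9% and 25.8%. With 2 libraries against 2, a gap between the groups is common across the whole transcriptome, and the spread of the controls limits what each comparison can show.

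**Figure D2:**
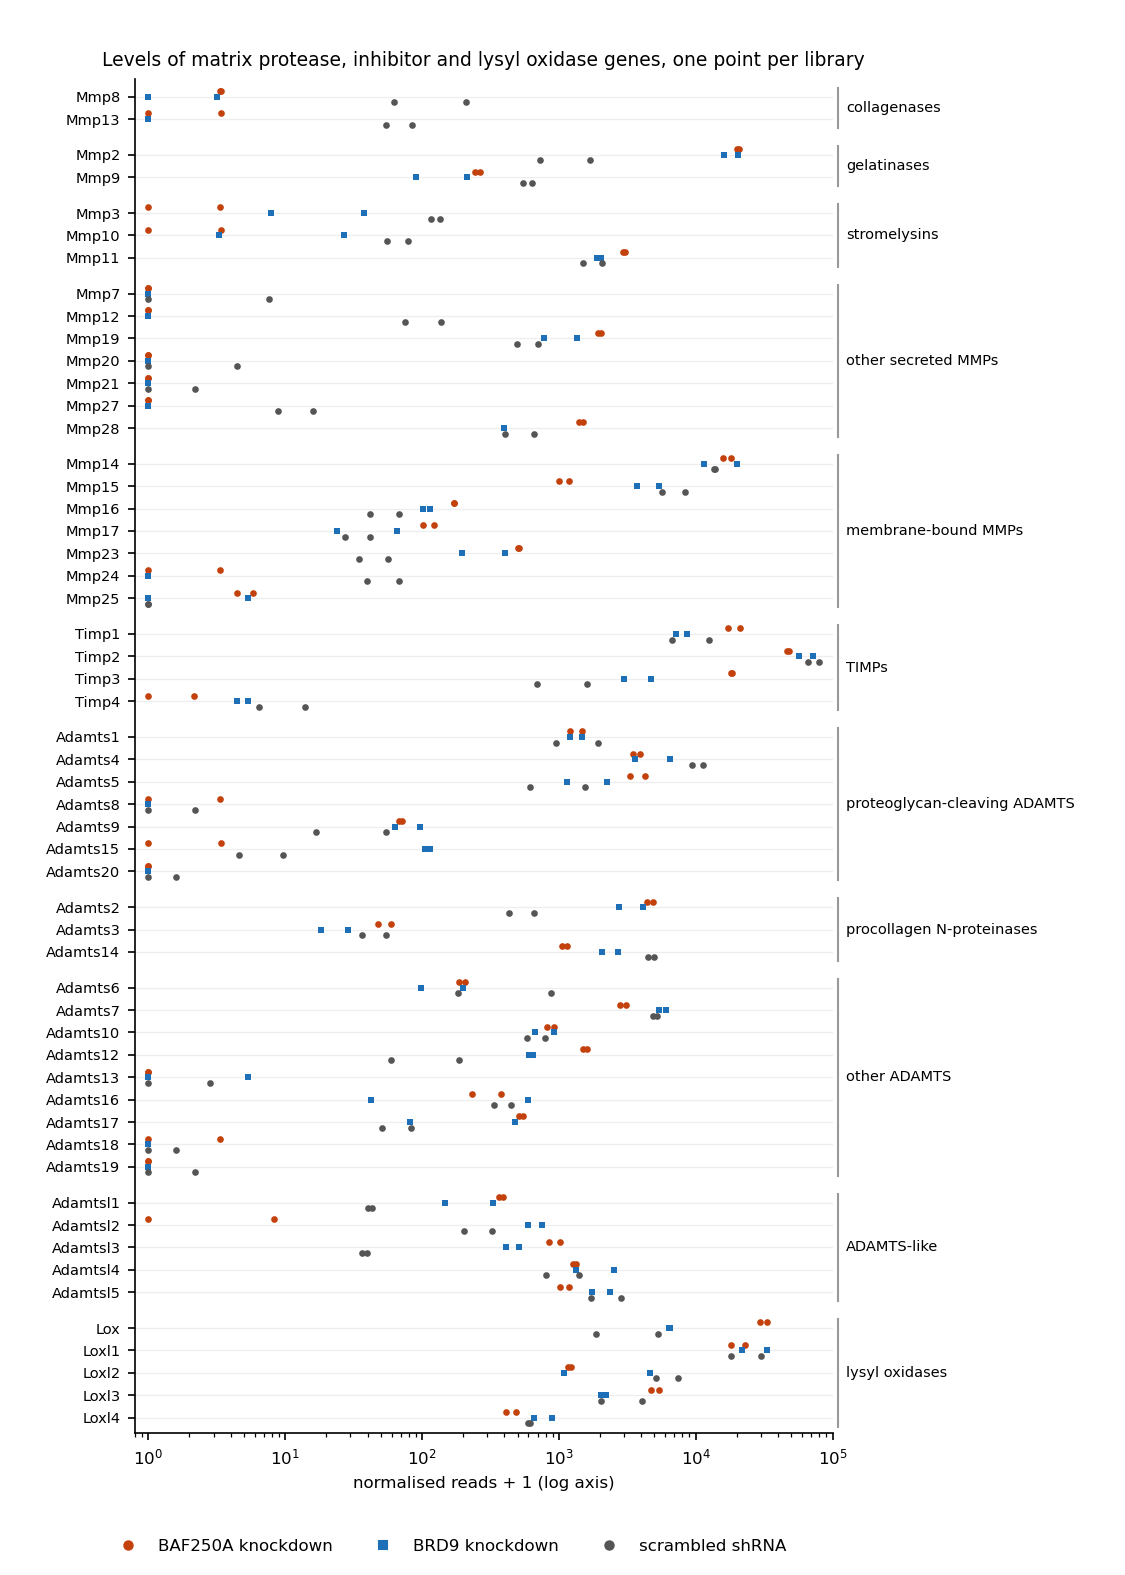
Normalised reads plus 1 (log axis) in each library for the 54 members with any read, in BAF250A knockdown (orange circles), BRD9 knockdown (blue squares) and scrambled shRNA (grey circles), from top to bottom within each gene's row. The 2 BAF250A points of a gene often lie on top of each other, while the BRD9 points of Adamts16 and Mmp10 and the scrambled points of Adamts6 lie far apart.

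The 5 largest decreases with BAF250A and the 3 largest with BRD9, by the log2 fold changes of the authors' deposited tables, were all in 1 gene cluster. Its 10 members lie in a row within 427 kb of chromosome 9, at 7272514 to 7699585 in mm10, in the order Mmp13, Mmp12, Mmp1b, Mmp3, Mmp1a, Mmp10, Mmp8, Mmp27, Mmp20 and Mmp7. With BAF250A, 6 of its 6 tested members fell in the authors' deposited table, and with BRD9 4 of 7 fell. Of all genes tested, 17.5% were called lower with BAF250A and 9.33% with BRD9. The cluster's tested members had most or all of their reads in the scrambled libraries, and so passed the filter on low counts through that group. These counts therefore do not measure how often the cluster's genes fall. No member of the cluster was called higher in either knockdown, which carries the same limit.

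The cluster's promoters are shown because 8 of the 10 genes share a motif that none of the 27 members outside the cluster with a promoter sequence holds. The remaining members, Mmp2, Mmp9, Adamts15 and Lox among them, had no promoter sequence here and were not searched. The window runs from 250 bases before to 50 after the annotated start, and the motif is TGANTCA, the letters bound by AP-1 factors, searched on both strands. It occurred in 7.81% of the 32851 mouse promoters of the same length and in 20% of the 40 promoters of the members. The 10 cluster genes have 12 promoters, so their count by gene is not on the same footing as these shares. The 4 sequences with the motif belong to genes that fell and that had at least 53.2 normalised reads in each scrambled library, and the motif is in capitals. The sequences of Mmp8 and Mmp27, which fell and hold no match, follow for comparison. All are RefSeq windows of GRCm38.p6 on the plus strand, 5′ to 3′.
Mmp13, chr9:7272264-7272563: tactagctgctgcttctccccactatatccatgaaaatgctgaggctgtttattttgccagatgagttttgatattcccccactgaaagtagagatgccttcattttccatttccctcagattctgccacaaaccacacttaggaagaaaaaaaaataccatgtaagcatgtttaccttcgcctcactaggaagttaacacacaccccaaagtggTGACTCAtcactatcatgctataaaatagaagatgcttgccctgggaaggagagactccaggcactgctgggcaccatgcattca
Mmp12, second start, chr9:7347124-7347423: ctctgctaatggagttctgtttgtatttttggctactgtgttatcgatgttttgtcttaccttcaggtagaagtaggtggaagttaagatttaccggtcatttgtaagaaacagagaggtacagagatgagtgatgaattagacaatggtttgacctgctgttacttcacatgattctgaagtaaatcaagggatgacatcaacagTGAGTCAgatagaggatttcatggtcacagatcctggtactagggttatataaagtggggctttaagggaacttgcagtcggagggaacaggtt
Mmp3, chr9:7445572-7445871: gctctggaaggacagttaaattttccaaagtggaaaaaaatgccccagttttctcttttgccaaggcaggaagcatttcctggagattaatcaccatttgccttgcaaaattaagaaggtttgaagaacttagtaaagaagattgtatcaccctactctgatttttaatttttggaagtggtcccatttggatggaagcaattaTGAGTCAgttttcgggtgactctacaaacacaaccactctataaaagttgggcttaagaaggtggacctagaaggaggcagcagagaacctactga
Mmp10, chr9:7502092-7502391: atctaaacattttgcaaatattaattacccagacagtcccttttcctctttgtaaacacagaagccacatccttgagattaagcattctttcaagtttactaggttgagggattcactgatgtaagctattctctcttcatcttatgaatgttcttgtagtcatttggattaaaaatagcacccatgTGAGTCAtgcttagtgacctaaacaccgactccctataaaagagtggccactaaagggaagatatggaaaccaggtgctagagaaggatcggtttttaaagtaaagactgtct
Mmp8, chr9:7558179-7558478: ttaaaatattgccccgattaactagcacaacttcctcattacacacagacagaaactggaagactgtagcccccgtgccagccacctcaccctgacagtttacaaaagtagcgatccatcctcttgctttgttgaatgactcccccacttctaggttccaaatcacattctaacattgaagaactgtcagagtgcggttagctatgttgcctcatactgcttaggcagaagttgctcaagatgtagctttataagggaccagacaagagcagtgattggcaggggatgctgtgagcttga
Mmp27, chr9:7571146-7571445: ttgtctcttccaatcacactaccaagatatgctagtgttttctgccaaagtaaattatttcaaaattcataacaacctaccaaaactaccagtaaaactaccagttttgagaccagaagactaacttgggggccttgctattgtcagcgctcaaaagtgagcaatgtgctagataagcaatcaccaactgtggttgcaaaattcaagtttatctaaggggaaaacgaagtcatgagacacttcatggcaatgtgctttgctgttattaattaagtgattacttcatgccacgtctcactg
The motif starts 35 bases before the start of Mmp13, 44 before that of Mmp12, 46 before that of Mmp3 and 63 before that of Mmp10. Mmp1a, Mmp1b, Mmp20 and Mmp7 hold it too, although Mmp1a and Mmp1b had no read here. The first start of Mmp12 and the second start of Mmp7 have no match. Of the other motifs searched, the TEAD letters GGAATG were in 5% of the members' promoters beside 14.7% of all, the E-box letters CANNTG in 70% beside 72.3%, and the CArG box of serum response factor in 0 of 40 beside 1.63%. A match describes letters in a window and was not tested as a binding site.

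Mmp13, collagenase 3 (gene 17386), had 0 and 2.42 normalised reads in BAF250A knockdown and 0 in both BRD9 libraries, against 83.9 and 53.2 with scrambled shRNA. All 4 knockdown libraries held 2 reads of this gene in total, where the scrambled libraries held 200. The level in BAF250A knockdown was 1.66% of that with scrambled shRNA, with an exact 95% interval of 0.2% to 6.07%. This interval covers only the counting error of reads taken as independent, which the many even low counts in the knockdown libraries put in doubt. The level in BRD9 knockdown was at least 42.5-fold lower, taking 3 reads over the 2 libraries as the floor, with the same doubt. Mmp13 fell in both knockdowns, with log2 fold changes of -5.02 (SE 0.99) for BAF250A and -6.04 (SE 1.11) for BRD9 and adjusted Wald p of 5.16e-06 and 1.45e-06 (the authors' deposited tables). Such fold changes of genes near 0 are drawn towards 0 by the authors' model and are no bound.

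Mmp8, the neutrophil collagenase (gene 17394), had 2.32 and 2.42 normalised reads in BAF250A knockdown and 2.17 and 0 in BRD9 knockdown, against 210.1 and 61.9 with scrambled shRNA. The 2 scrambled libraries differed by 3.39-fold, and the lower of them was still above every knockdown library. Mmp8 fell in both knockdowns, with log2 fold changes of -5.26 (SE 0.87) for BAF250A and -5.77 (SE 0.93) for BRD9 and adjusted Wald p of 2.52e-08 and 1.83e-08 (the authors' deposited tables). With 2 reads in the BRD9 libraries, its level there was 0.749% of the scrambled level, with an exact 95% interval of 0.0904% to 2.72%.

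Mmp3, stromelysin 1 (gene 17392), had 2.32 and 0 normalised reads in BAF250A knockdown and 37 and 6.92 in BRD9 knockdown, against 116 and 135 with scrambled shRNA. Both knockdowns were below the controls, and the BRD9 libraries kept more of this transcript than the BAF250A libraries. Mmp3 fell in both knockdowns, with log2 fold changes of -5.90 (SE 0.93) for BAF250A and -2.31 (SE 0.73) for BRD9 and adjusted Wald p of 4.12e-09 and 0.0144 (the authors' deposited tables). Mmp10, stromelysin 2 (gene 17384), had 0 and 2.42 normalised reads in BAF250A knockdown and 26.1 and 2.31 in BRD9 knockdown, against 77.9 and 54.1 with scrambled shRNA. Its BRD9 libraries differed by 11.3-fold, and both were below the controls. Mmp10 fell with BAF250A, at a log2 fold change of -4.97 (SE 1.00) (adjusted Wald p 7.05e-06, the authors' deposited table), and its value with BRD9 was -1.96 (SE 0.85), which did not pass (adjusted Wald p 0.114). The exons of Mmp3 and Mmp10 share 14.6% and 11.9% of their 31-base words with other genes, chiefly each other, so reads could have been split between them.

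Mmp12, the macrophage elastase (gene 17381), had 0 reads in all 4 knockdown libraries and 137 and 74.1 normalised reads with scrambled shRNA. Its level was at least 62.7-fold lower in BAF250A knockdown and at least 66.3-fold lower in BRD9 knockdown, with 3 reads over the group as the floor. Mmp12 fell in both knockdowns, with log2 fold changes of -6.98 (SE 1.20) for BAF250A and -6.60 (SE 1.08) for BRD9 and adjusted Wald p of 1.05e-07 and 3.19e-08 (the authors' deposited tables). Mmp27 (gene 234911) was likewise at 0 in the 4 knockdown libraries and had 15.1 and 7.85 normalised reads with scrambled shRNA, which makes it at least 6.83-fold lower with BAF250A and at least 7.23-fold lower with BRD9. It fell with BAF250A, at a log2 fold change of -3.85 (SE 1.45) (adjusted Wald p 0.0309, the authors' deposited table) and stood at -3.43 (SE 1.30) with BRD9 (adjusted Wald p 0.0557). Mmp7, matrilysin, and Mmp20, enamelysin, had reads in 1 scrambled library only, 11 and 4 of them.

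The macrophage marker Cd68 and the endothelial marker Kdr moved with these genes, while the other leukocyte and endothelial markers were low in every library. Cd68 had 18.6 and 29 normalised reads in BAF250A knockdown and 27.2 and 21.9 in BRD9 knockdown, against 124 and 179 with scrambled shRNA. Cd68 fell in both knockdowns, with log2 fold changes of -2.53 (SE 0.60) for BAF250A and -2.46 (SE 0.62) for BRD9 and adjusted Wald p of 0.000233 and 0.00109 (the authors' deposited tables). All 4 knockdown libraries were below both controls for Cd68. The summed level of the 3 leukocyte markers ranged from 18.6 to 29.0 in BAF250A knockdown and from 21.9 to 27.2 in BRD9 knockdown, against 128 to 179 with scrambled shRNA. Ptprc and Adgre1, the other 2, had no read in any knockdown library and none in scrambled library 2, with 3.02 and 1.21 normalised reads in scrambled library 1. Kdr, a receptor for vascular endothelial growth factor, fell in both knockdowns, with log2 fold changes of -7.60 (SE 1.16) for BAF250A and -5.32 (SE 0.78) for BRD9 and adjusted Wald p of 1.34e-09 and 4.05e-10 (the authors' deposited tables), and its reads were not solved. The other 2 endothelial markers, Pecam1 and Cdh5, passed neither test, and their summed level ranged from 1.21 to 9.28 normalised reads in BAF250A knockdown and from 4.61 to 16.3 in BRD9 knockdown, against 8.45 to 10.46 with scrambled shRNA. The part of other cells in the cluster's decrease was not tested. In limma fits of the solved reads without 1 library, the call of Mmp10 with BAF250A was lost without either scrambled library (adjusted p 0.0679 and 0.0758). The limma call of Mmp3 with BRD9 was lost without BRD9 library 2 (adjusted p 0.274) and without either scrambled library (0.144 and 0.23). Without 1 library the limma log2 fold changes with BAF250A lay between -6.08 and -4.31 for Mmp13, -5.97 and -4.22 for Mmp8, -6.98 and -5.25 for Mmp3 and -6.04 and -4.27 for Mmp10, and with BRD9 between -6.89 and -5.14 for Mmp8 and -3.99 and -1.73 for Mmp3.

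**Figure D3:**
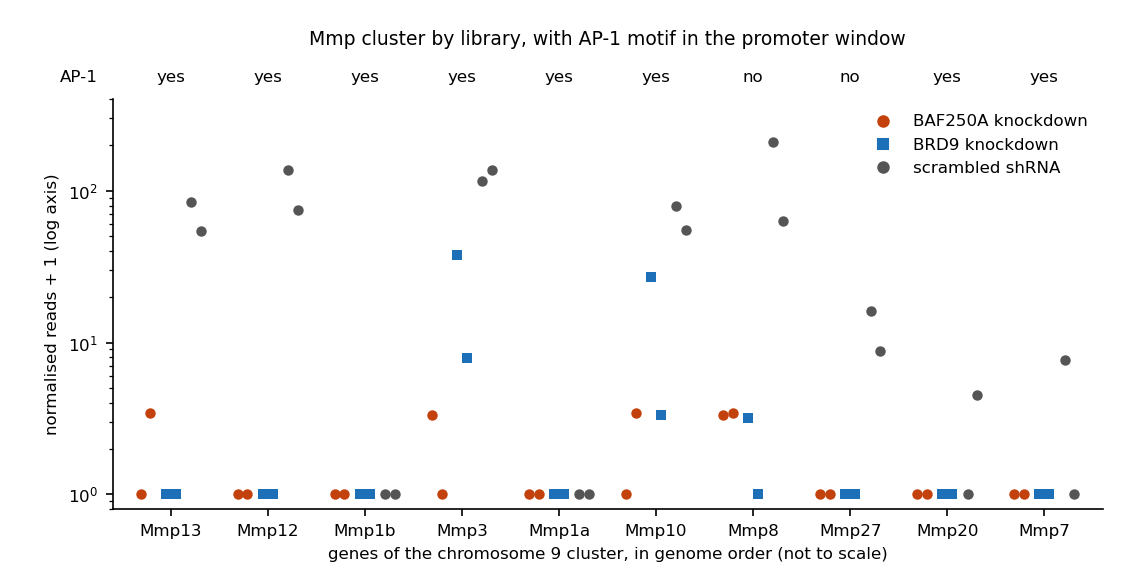
Normalised reads plus 1 (log axis) in each library for the 10 Mmp genes of the chromosome 9 cluster in genome order, with BAF250A knockdown, BRD9 knockdown and scrambled shRNA from left to right for each gene. The words above the axis say whether the promoter window holds the AP-1 motif. The scrambled points of Mmp13, Mmp12, Mmp3, Mmp10, Mmp8 and Mmp27 lie above all knockdown points, 8 of 10 genes hold the motif, and Mmp8 and Mmp27 do not.

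The gelatinases moved in opposite directions, and each moved the same way in both knockdowns. Mmp2, gelatinase A (gene 17390, chromosome 8, 92827290 to 92853421 in mm10), had 20145 and 20570 normalised reads in BAF250A knockdown and 16000 and 20523 in BRD9 knockdown, against 726 and 1684 with scrambled shRNA. Every knockdown library was far above both controls. Mmp2 rose in both knockdowns, with log2 fold changes of 4.0 (SE 0.49) for BAF250A and 3.78 (SE 0.53) for BRD9 and adjusted Wald p of 1.08e-14 and 6.64e-11 (the authors' deposited tables). Mmp9, gelatinase B (gene 17395, chromosome 2, 164940326 to 164955850 in mm10), had 244 and 266 normalised reads in BAF250A knockdown and 89.1 and 212 in BRD9 knockdown, against 550.5 and 632 with scrambled shRNA. The groups did not overlap, and the decrease was modest beside the increase of Mmp2. Mmp9 fell in both knockdowns, with log2 fold changes of -1.16 (SE 0.45) for BAF250A and -1.87 (SE 0.57) for BRD9 and adjusted Wald p of 0.0388 and 0.00926 (the authors' deposited tables). The limma fit of the solved reads did not call Mmp9 with BAF250A (log2 fold change -1.21, adjusted p 0.105), and with BRD9 it lost the call without BRD9 library 1 (adjusted p 0.141) or either scrambled library (0.0616 and 0.119). Without 1 library the limma log2 fold change of Mmp2 lay between 3.59 and 4.81 with BAF250A and between 3.43 and 4.64 with BRD9, where the extremes left out a scrambled library, and that of Mmp9 with BRD9 between -2.71 and -1.47, where they left out a BRD9 library.

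Of the remaining secreted metalloproteinases, Mmp19 and Mmp28 rose in BAF250A knockdown and did not pass the test in BRD9 knockdown. Mmp19, which cuts basement membrane proteins (gene 58223), had 1925 and 2017 normalised reads in BAF250A knockdown and 774 and 1349 in BRD9 knockdown, against 491 and 705 with scrambled shRNA. All knockdown libraries were above the controls. Mmp19 rose with BAF250A, at a log2 fold change of 1.72 (SE 0.44) (adjusted Wald p 0.000766, the authors' deposited table) and stood at 0.81 (SE 0.52) with BRD9 (adjusted Wald p 0.36). Mmp28, epilysin (gene 118453), had 1406 and 1512 normalised reads in BAF250A knockdown and 399 and 398 in BRD9 knockdown, against 405 and 658 with scrambled shRNA. Its BAF250A libraries were above the controls, and its BRD9 libraries were just below them. Mmp28 rose with BAF250A, at a log2 fold change of 1.45 (SE 0.46) (adjusted Wald p 0.00761, the authors' deposited table) and stood at -0.39 (SE 0.51) with BRD9. Both counts are uncertain, since 26.7% of the words of Mmp19 and 11.1% of those of Mmp28 occur in other genes, and both limma calls were lost without either BAF250A library (adjusted p 0.0985 and 0.119 for Mmp19, 0.194 and 0.244 for Mmp28). Mmp11, stromelysin 3, which lies outside the cluster, had 2955 and 3030 normalised reads in BAF250A knockdown and 2018 and 1915 in BRD9 knockdown, against 1510 and 2068 with scrambled shRNA, and passed neither test. Mmp21 had reads in 1 scrambled library only, 2 of them.

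The membrane-bound metalloproteinases split by gene. Of 6 tested members 3 rose and 2 fell with BAF250A, and 1 rose and 1 fell with BRD9. Across all genes tested, 11.2% were called higher and 17.5% lower with BAF250A, and 5.11% and 9.33% with BRD9. Mmp24, which fell in both, had nearly all its reads in the scrambled libraries and so passed the filter on low counts through that group. Mmp14, the main membrane-type enzyme, which activates the precursor of Mmp2, passed neither test, with 15952 and 18043 normalised reads in BAF250A knockdown and 11441 and 20004 in BRD9 knockdown, against 13899 and 13568 with scrambled shRNA. Per kilobase of exon it was the highest member of this group in every condition, at 2852 normalised reads per kilobase in BAF250A knockdown, 2638 in BRD9 knockdown and 2304 with scrambled shRNA.

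Mmp23, a metalloproteinase anchored at its amino end (gene 26561), had 508 and 503 normalised reads in BAF250A knockdown and 194 and 401 in BRD9 knockdown, against 33.8 and 55.8 with scrambled shRNA. All knockdown libraries exceeded both controls. Mmp23 rose in both knockdowns, with log2 fold changes of 3.44 (SE 0.50) for BAF250A and 2.61 (SE 0.60) for BRD9 and adjusted Wald p of 1.26e-10 and 0.000225 (the authors' deposited tables). Mmp24, a membrane-type enzyme best known from neurons (gene 17391), had 2.32 and 0 normalised reads in BAF250A knockdown and 0 in both BRD9 libraries, against 38.6 and 67.2 with scrambled shRNA. Its level was 2.35% of the scrambled level in BAF250A knockdown (exact 95% interval 0.282% to 8.66%) and at least 30-fold lower in BRD9 knockdown. Mmp24 fell in both knockdowns, with log2 fold changes of -4.65 (SE 1.03) for BAF250A and -5.67 (SE 1.14) for BRD9 and adjusted Wald p of 6.18e-05 and 1.35e-05 (the authors' deposited tables), with 13% of its words shared with an overlapping gene. The limma call of Mmp23 with BRD9 was lost without BRD9 library 2 (adjusted p 0.0627), and the limma log2 fold change of Mmp24 with BAF250A lay between -5.70 and -3.97 without 1 BAF250A library.

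Mmp15, another enzyme with a membrane-spanning anchor (gene 17388), had 994 and 1191 normalised reads in BAF250A knockdown and 3753 and 5402 in BRD9 knockdown, against 5637 and 8350 with scrambled shRNA. The BAF250A libraries were lowest, and the BRD9 libraries were also below both controls. Mmp15 fell with BAF250A, at a log2 fold change of -2.59 (SE 0.44) (adjusted Wald p 7.54e-08, the authors' deposited table) and stood at -0.58 (SE 0.50) with BRD9 (adjusted Wald p 0.523). Mmp16 (gene 17389) had 170.5 and 172 normalised reads in BAF250A knockdown and 99.97 and 113 in BRD9 knockdown, against 66.4 and 41 with scrambled shRNA. Mmp17, anchored by a lipid (gene 23948), had 121 and 102 normalised reads in BAF250A knockdown and 65.2 and 23.1 in BRD9 knockdown, against 26.6 and 41 with scrambled shRNA. Both were above the controls in the BAF250A libraries. Mmp16 and Mmp17 rose with BAF250A, at log2 fold changes of 1.64 (SE 0.55) and 1.69 (SE 0.60) (adjusted Wald p 0.0132 and 0.0204, the authors' deposited table), and neither passed with BRD9. The limma fit did not call Mmp17 (adjusted p 0.0698), and it lost Mmp16 without either BAF250A library (0.23 and 0.236) or scrambled library 2 (0.0781). Mmp25 had 3.48 and 4.84 normalised reads in BAF250A knockdown, 4.35 and 0 in BRD9 knockdown and 0 in both scrambled libraries, with no adjusted p in either table.

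Of the 4 inhibitors, Timp3 was the 1 that passed the test, in both knockdowns and upwards. Timp3, which binds to the matrix and also blocks ADAM and ADAMTS proteases (gene 21859, chromosome 10, 86300412 to 86349505 in mm10), had 17975 and 18323 normalised reads in BAF250A knockdown and 4749 and 2990 in BRD9 knockdown, against 1608 and 694 with scrambled shRNA. The BAF250A libraries were highest, the BRD9 libraries came next, and no group overlapped another. Timp3 rose in both knockdowns, with log2 fold changes of 3.90 (SE 0.49) for BAF250A and 1.66 (SE 0.56) for BRD9 and adjusted Wald p of 5.99e-14 and 0.0237 (the authors' deposited tables). Its count is uncertain because 21.9% of its words are shared, mostly with Syn3, which it overlaps. The limma call with BRD9 was lost without BRD9 library 1 (adjusted p 0.151) or scrambled library 2 (0.0905), and without 1 scrambled library the log2 fold change lay between 3.50 and 4.71 with BAF250A and between 1.23 and 2.44 with BRD9.

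Timp2, which takes part in activating Mmp2 at the cell surface, was the most abundant inhibitor per kilobase with scrambled shRNA, at 12121 normalised reads per kilobase of exon in BAF250A knockdown and 16590 in BRD9 knockdown, against 18766 with scrambled shRNA. Timp1, a broad secreted inhibitor, had 21628 per kilobase in BAF250A knockdown and 8895 in BRD9 knockdown, against 10877, so it stood above Timp2 in BAF250A knockdown. Timp2 had 46356 and 48089 normalised reads in BAF250A knockdown and 56802 and 72466 in BRD9 knockdown, against 65878 and 80347 with scrambled shRNA. Timp1 had 17163 and 21248 normalised reads in BAF250A knockdown and 7188 and 8609 in BRD9 knockdown, against 6751 and 12566 with scrambled shRNA. The BAF250A libraries were below the controls for Timp2 and above them for Timp1, and the BRD9 libraries overlapped the controls for both. Neither gene passed a test, with values of -0.59 (SE 0.42) for Timp2 and 1.0 (SE 0.46) for Timp1 with BAF250A in the authors' deposited table (adjusted Wald p 0.307 and 0.0926). Timp4 had at most 13.1 normalised reads in any library.

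**Figure D4:**
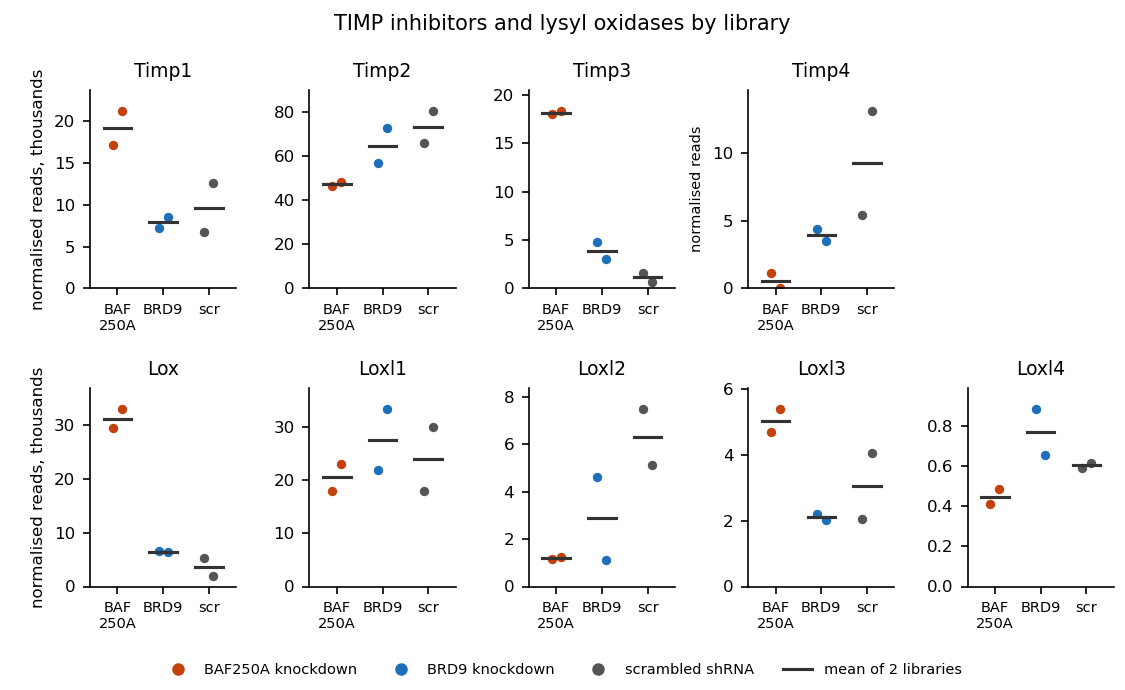
Normalised reads in each library (points) and their mean over 2 libraries (lines) for the 4 TIMP genes (top) and the 5 lysyl oxidase genes (bottom), in BAF250A knockdown, BRD9 knockdown and scrambled shRNA from left to right. Timp3 and Lox are far higher in the BAF250A libraries, and the mean of Loxl2 is lowest there. The BRD9 points of Loxl2 lie far apart, and the lower of them is below both BAF250A points.

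Among the ADAMTS proteases that cut proteoglycans, Adamts5 and Adamts4 moved apart in BAF250A knockdown, and Adamts15 rose in BRD9 knockdown. Adamts5, an aggrecanase that also cuts versican (gene 23794), had 4243 and 3296 normalised reads in BAF250A knockdown and 2246 and 1140 in BRD9 knockdown, against 1554 and 614 with scrambled shRNA. Its BAF250A libraries were above the controls, and its BRD9 libraries overlapped them. Adamts5 rose with BAF250A, at a log2 fold change of 1.77 (SE 0.51) (adjusted Wald p 0.00317, the authors' deposited table) and stood at 0.60 (SE 0.59) with BRD9. Adamts4, the other main aggrecanase (gene 240913), had 3494 and 3944 normalised reads in BAF250A knockdown and 3589 and 6507 in BRD9 knockdown, against 9476 and 11391 with scrambled shRNA. All knockdown libraries were below both controls. Adamts4 fell with BAF250A, at a log2 fold change of -1.43 (SE 0.42) (adjusted Wald p 0.00412, the authors' deposited table) and stood at -1.0 (SE 0.51) with BRD9 (adjusted Wald p 0.207). The limma calls with BAF250A were lost for Adamts5 without BAF250A library 1 (adjusted p 0.0891) or scrambled library 2 (0.126), and for Adamts4 without either BAF250A library (0.151 and 0.0919) or scrambled library 2 (0.0831), and the log2 fold change of Adamts5 lay between 1.27 and 2.60 without 1 library.

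Adamts15 (gene 235130, chromosome 9, 30899155 to 30922452 in mm10) had 0 and 2.42 normalised reads in BAF250A knockdown and 104 and 113 in BRD9 knockdown, against 3.62 and 8.72 with scrambled shRNA. The BRD9 libraries were high and all others near 0. Adamts15 rose with BRD9, at a log2 fold change of 3.85 (SE 0.72) (adjusted Wald p 2.25e-06, the authors' deposited table), and its value with BAF250A, which rests on 2 reads, was -1.54 (SE 1.43) (adjusted Wald p 0.456). Adamts1 and Adamts9, 2 further versican-cutting enzymes, passed neither test, with 1475 and 1205 normalised reads of Adamts1 in BAF250A knockdown and 1206 and 1467 in BRD9 knockdown, against 1925 and 953 with scrambled shRNA. Adamts9 had between 15.7 and 95.6 normalised reads in the 6 libraries, and Adamts8 and Adamts20 had at most 2 reads in any library.

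The 3 procollagen N-proteinases remove the amino-terminal extension of fibrillar procollagens before fibrils form, and 2 of them moved in opposite directions. Adamts2 (gene 216725, chromosome 11, 50602085 to 50807573 in mm10) had 4433 and 4900 normalised reads in BAF250A knockdown and 2751 and 4157 in BRD9 knockdown, against 429 and 655 with scrambled shRNA. Every knockdown library was above every control. Adamts2 rose in both knockdowns, with log2 fold changes of 3.07 (SE 0.44) for BAF250A and 2.58 (SE 0.51) for BRD9 and adjusted Wald p of 1.08e-10 and 7.81e-06 (the authors' deposited tables). Adamts14 (gene 237360) had 1062 and 1144 normalised reads in BAF250A knockdown and 2054 and 2695 in BRD9 knockdown, against 4494 and 4973 with scrambled shRNA. The order from low to high was BAF250A knockdown, BRD9 knockdown, scrambled shRNA, without overlap. Adamts14 fell with BAF250A, at a log2 fold change of -2.03 (SE 0.42) (adjusted Wald p 1.58e-05, the authors' deposited table) and stood at -0.95 (SE 0.48) with BRD9 (adjusted Wald p 0.199). Adamts3 had between 17.4 and 58.1 normalised reads in the 6 libraries and passed neither test. Leaving out any 1 library kept the limma calls of Adamts2 in both comparisons and of Adamts14 with BAF250A.

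Among the other ADAMTS proteases Adamts12 rose in both knockdowns. Adamts12, which cuts cartilage oligomeric matrix protein (gene 239337), had 1510 and 1612 normalised reads in BAF250A knockdown and 602 and 645 in BRD9 knockdown, against 185 and 58.4 with scrambled shRNA. All knockdown libraries were above the controls, which differed by 3.16-fold from each other. Adamts12 rose in both knockdowns, with log2 fold changes of 3.59 (SE 0.54) for BAF250A and 2.22 (SE 0.60) for BRD9 and adjusted Wald p of 9.51e-10 and 0.00277 (the authors' deposited tables). Adamts17 (gene 233332) had 551 and 507 normalised reads in BAF250A knockdown and 80.4 and 474 in BRD9 knockdown, against 82.7 and 49.7 with scrambled shRNA. One BRD9 library was at the level of the BAF250A libraries and the other at the level of the controls. Adamts17 rose with BAF250A, at a log2 fold change of 2.94 (SE 0.49) (adjusted Wald p 4.33e-08, the authors' deposited table) and narrowly missed the threshold with BRD9 at 1.91 (SE 0.71) (adjusted Wald p 0.0518). Adamts6, Adamts7, Adamts10 and Adamts16 were tested and not called in either comparison, with log2 values from -1.34 (Adamts6) to 0.36 (Adamts10) with BAF250A and from -1.72 (Adamts6) to 0.21 (Adamts10) with BRD9 in the authors' deposited tables. Adamts13, Adamts18 and Adamts19 had at most 4 reads in any library, and of these Adamts13 alone was tested, with BRD9 (adjusted Wald p 0.879). The limma call of Adamts17 with BAF250A was lost without either scrambled library (adjusted p 0.0754 and 0.158) and that of Adamts12 with BRD9 without BRD9 library 2 (0.058), while without 1 scrambled library the log2 fold change of Adamts12 lay between 3.07 and 4.72 with BAF250A and between 1.75 and 3.39 with BRD9.

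**Figure D5:**
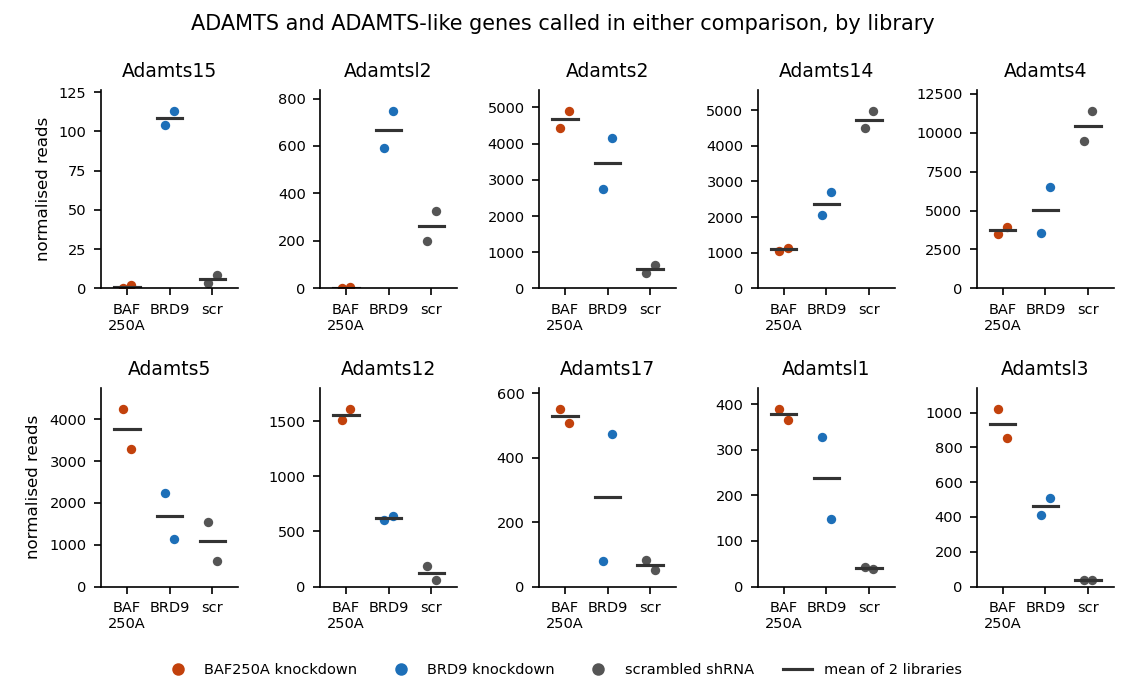
Normalised reads in each library (points) and their mean over 2 libraries (lines) for the 10 ADAMTS and ADAMTS-like genes called in either comparison, in BAF250A knockdown, BRD9 knockdown and scrambled shRNA from left to right. Adamts15 is at 104 and 113 normalised reads in the BRD9 libraries and near 0 elsewhere, Adamtsl2 is near 0 in the BAF250A libraries, and the BRD9 points of Adamts17 lie apart.

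Of the ADAMTS-like genes, Adamtsl1 and Adamtsl3 rose in both knockdowns, and Adamtsl2 fell with BAF250A. Adamtsl3 (gene 269959, chromosome 7, 82335399 to 82614450 in mm10) had 1020 and 853 normalised reads in BAF250A knockdown and 412 and 509.8 in BRD9 knockdown, against 38.6 and 35.8 with scrambled shRNA. The 2 controls were almost equal, and every knockdown library was far above them. Adamtsl3 rose in both knockdowns, with log2 fold changes of 4.57 (SE 0.47) for BAF250A and 3.48 (SE 0.54) for BRD9 and adjusted Wald p of 9.13e-21 and 3.01e-09 (the authors' deposited tables). Adamtsl1 (gene 77739) had 389.7 and 366 normalised reads in BAF250A knockdown and 328 and 148 in BRD9 knockdown, against 42.2 and 39.2 with scrambled shRNA. Its groups did not overlap the controls either. Adamtsl1 rose in both knockdowns, with log2 fold changes of 3.16 (SE 0.49) for BAF250A and 2.41 (SE 0.61) for BRD9 and adjusted Wald p of 2.87e-09 and 0.000966 (the authors' deposited tables), and its limma call with BRD9 was lost without BRD9 library 1 (adjusted p 0.0904) or scrambled library 2 (0.0811).

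Adamtsl2, a protein that binds fibrillin and a latent TGF-beta binding protein (gene 77794, chromosome 2, 27079336 to 27108981 in mm10), had 0 and 7.26 normalised reads in BAF250A knockdown and 591 and 747 in BRD9 knockdown, against 202 and 325 with scrambled shRNA. The BAF250A libraries were almost without this transcript, and the BRD9 libraries were both above the controls. Adamtsl2 fell with BAF250A, at a log2 fold change of -4.57 (SE 1.30) (adjusted Wald p 0.00268, the authors' deposited table), and its value with BRD9 was 1.31 (SE 0.52) (adjusted Wald p 0.0735). Without 1 BAF250A library the limma log2 fold change lay between -8.01 and -4.96. Adamtsl4 and Adamtsl5 were at 804 normalised reads or more in every library and passed neither test.

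Of the lysyl oxidases, Lox rose and Loxl2 fell in BAF250A knockdown, and none of the 5 passed the test in BRD9 knockdown, where limma on the solved reads called 0 of 5 as well and 0 of 5 had an unadjusted Wald p below 0.05. Across all genes tested, 11.2% were called higher and 17.5% lower with BAF250A by the Wald test. With BRD9 14.4% were called by the Wald test and 16.3% by limma, so 0 of 5 does not set the lysyl oxidases apart. Lox (gene 16948) had 29529 and 33044 normalised reads in BAF250A knockdown and 6531 and 6379 in BRD9 knockdown, against 5312 and 1864 with scrambled shRNA. The BAF250A libraries stood far above all others, and the BRD9 libraries were just above the upper control. Lox rose with BAF250A, at a log2 fold change of 3.06 (SE 0.52) (adjusted Wald p 6.91e-08, the authors' deposited table) and stood at 0.80 (SE 0.57) with BRD9 (adjusted Wald p 0.415). Per kilobase of exon Lox had 6548 normalised reads in BAF250A knockdown and 1351 in BRD9 knockdown, against 751 with scrambled shRNA. Loxl1, which is needed for elastic fibres, had 6232 per kilobase in BAF250A knockdown and 8402 in BRD9 knockdown, against 7284 with scrambled shRNA. Loxl1 was thus far above Lox per kilobase with scrambled shRNA, and the 2 were close in BAF250A knockdown.

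Loxl2, which cross-links basement membrane collagen (gene 94352), had 1166 and 1222 normalised reads in BAF250A knockdown and 4633 and 1097 in BRD9 knockdown, against 7475 and 5105 with scrambled shRNA. Both BAF250A libraries were low and alike, and the BRD9 libraries differed by 4.22-fold. Loxl2 fell with BAF250A, at a log2 fold change of -2.32 (SE 0.44) (adjusted Wald p 1.6e-06, the authors' deposited table) and stood at -1.08 (SE 0.62) with BRD9 (adjusted Wald p 0.286). The count of Loxl2 is uncertain, since 46.4% of its words occur in other annotated genes. Loxl3 and Loxl4 passed neither test, with values of 0.74 (SE 0.47) and -0.39 (SE 0.44) with BAF250A and -0.49 (SE 0.51) and 0.34 (SE 0.49) with BRD9 in the authors' deposited tables. The limma call of Loxl2 with BAF250A was lost without either scrambled library (adjusted p 0.127 and 0.104), and the log2 fold change of Lox lay between 2.56 and 4.07 without 1 scrambled library.

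Between the knockdowns, 2 of the 45 members tested in both tables differed, where 2.54% of 16311 genes did. The test is a z test of one deposited log2 fold change minus the other, with Benjamini-Hochberg adjustment, and it is conservative because both comparisons share the scrambled libraries. Adamtsl2 differed by -5.88 (SE 1.40) on the log2 scale, BAF250A minus BRD9 (adjusted p 0.00219 by this z test of the deposited values). Adamts15 differed by -5.39 (SE 1.60) (adjusted p 0.0338 by the same z test). Both were far lower in the BAF250A libraries than in the BRD9 libraries, in 2 of 2 libraries each. Limma on the solved reads called 6 members, 3 higher and 3 lower, where it called 6.42% of genes, 2.2% higher and 4.23% lower. With a covariance for the shared controls 8 members passed, the others being Lox, Timp3, Mmp28, Mmp15, Mmp3 and Mmp10. The share of all genes that passed with this covariance is not given here. Under the main test Lox differed by 2.26 (SE 0.77), Timp3 by 2.24 (SE 0.74) and Mmp28 by 1.84 (SE 0.69) (adjusted z test p 0.101, 0.0819 and 0.181). Mmp15 differed by -2.01 (SE 0.67), Mmp3 by -3.60 (SE 1.18) and Mmp10 by -3.01 (SE 1.31) (adjusted z test p 0.081, 0.0771 and 0.369). For the other members a difference was not detectable at this precision, which does not show that the knockdowns act alike on them.

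The 5 lists of related genes that follow are set beside the same backgrounds as the members, 28.7% called with BAF250A and 14.4% with BRD9, with medians of -0.18 and -0.15 over all genes. Genes with a mean of 100 or more, as many genes of the lists are, had medians of 0.03 and 0.05. The plasminogen activator system, which makes plasmin and so activates several metalloproteinase precursors, had 2 of 10 tested genes higher and 1 lower with BAF250A, and 0 higher and 1 lower with BRD9. Its median log2 fold change was -0.60 with BAF250A and -0.45 with BRD9. Serpinb2, an inhibitor of plasminogen activators, fell with BAF250A, at a log2 fold change of -4.61 (SE 1.06) (adjusted Wald p 0.00013, the authors' deposited table). Plaur, the urokinase receptor, fell with BRD9, at a log2 fold change of -1.50 (SE 0.51) (adjusted Wald p 0.0271, the authors' deposited table).

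Among the transmembrane ADAM proteases 2 of 10 tested genes were higher and 1 lower with BAF250A, and 2 of 11 were higher and 0 lower with BRD9, with medians of 0.19 and 0.53. Adam12, a protease of fusing muscle cells, had 1072 and 1085 normalised reads in BAF250A knockdown and 933 and 2595 in BRD9 knockdown, against 146 and 63.7 with scrambled shRNA. All knockdown libraries were above both controls. Adam12 rose in both knockdowns, with log2 fold changes of 3.29 (SE 0.51) for BAF250A and 3.84 (SE 0.61) for BRD9 and adjusted Wald p of 1.84e-09 and 1.4e-08 (the authors' deposited tables). Adam23, which has no active protease site, rose in both knockdowns, with log2 fold changes of 1.99 (SE 0.46) for BAF250A and 1.57 (SE 0.54) for BRD9 and adjusted Wald p of 0.000116 and 0.0282 (the authors' deposited tables). Adam8 fell with BAF250A, at a log2 fold change of -2.96 (SE 0.56) (adjusted Wald p 1.35e-06, the authors' deposited table), and the knockdowns differed by -2.93 (SE 0.83) (adjusted p 0.0194 by the z test).

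Of the genes that process and cross-link collagen besides the members, 7 of 17 tested were higher and 1 lower with BAF250A, and 3 of 18 were higher and 1 lower with BRD9, with medians of 1.03 and 0.20. Tll1, 1 of the 3, had 15.2 and 24.2 normalised reads in BRD9 knockdown, against 0.604 and 0 with scrambled shRNA. It passed the filter on low counts through the BRD9 libraries alone, which limits this count. Fmod, fibromodulin, which guides cross-linking by Lox, had 10201 and 12003 normalised reads in BAF250A knockdown and 348 and 3545 in BRD9 knockdown, against 27.8 and 48 with scrambled shRNA. Every knockdown library was above the controls, and the BRD9 libraries lay far apart. Fmod rose in both knockdowns, with log2 fold changes of 8.04 (SE 0.47) for BAF250A and 5.22 (SE 0.74) for BRD9 and adjusted Wald p of 4.65e-63 and 7.5e-11 (the authors' deposited tables). Plod2, which hydroxylates lysines for cross-links, rose with BAF250A, at a log2 fold change of 1.42 (SE 0.53) (adjusted Wald p 0.03, the authors' deposited table). Postn, periostin, fell with BRD9, at a log2 fold change of -2.20 (SE 0.63) (adjusted Wald p 0.00539, the authors' deposited table), and the knockdowns differed by 2.87 (SE 0.87) (adjusted p 0.0382 by the z test). Its scrambled libraries lay far apart, at 29464 and 6264 normalised reads, against 3912 and 3211 in BRD9 knockdown.

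Of other matrix proteases, activators and inhibitors, 3 of 17 tested genes were higher and 0 lower with BAF250A, and 2 of 19 were higher and 0 lower with BRD9, with medians of 0.40 and -0.16. Spock2, a proteoglycan of the testican family, rose in both knockdowns, with log2 fold changes of 2.52 (SE 0.45) for BAF250A and 3.14 (SE 0.52) for BRD9 and adjusted Wald p of 3.11e-07 and 5.48e-08 (the authors' deposited tables). Fap, a surface protease of activated fibroblasts, rose with BRD9, at a log2 fold change of 5.62 (SE 0.96) (adjusted Wald p 1.54e-07, the authors' deposited table), with 137 and 32.3 normalised reads in BRD9 knockdown against 0.604 and 0.872 with scrambled shRNA. It passed the filter on low counts through the BRD9 libraries alone, which limits the count of 2 of 19. Reck, a membrane inhibitor of metalloproteinases, and Furin, which cuts the precursors of membrane-type enzymes, passed neither test. Of 14 listed substrates of these enzymes 7 of 12 tested were higher and 0 lower with BAF250A, and 7 of 13 were higher and 0 lower with BRD9, with medians of 1.39 and 1.69. Col4a1, a basement membrane collagen, had 14377 and 14464 normalised reads in BAF250A knockdown and 31182 and 18340 in BRD9 knockdown, against 5304 and 4919 with scrambled shRNA. Every knockdown library was above both controls. Col4a1 rose in both knockdowns, with log2 fold changes of 1.50 (SE 0.42) for BAF250A and 2.19 (SE 0.50) for BRD9 and adjusted Wald p of 0.00204 and 0.00017 (the authors' deposited tables), and Vcan, versican, passed neither test. Beside these genes, the summed level of the fibroblast markers Pdgfra, Thy1 and Dcn ranged from 3142 to 3535 in BAF250A knockdown and from 1696 to 6130 in BRD9 knockdown, against 1168 to 2707 with scrambled shRNA. Col1a1 is both a substrate and a fibroblast marker here, and its reads were not solved. Where a list had no gene called in 1 direction, limma on the solved reads called none of the genes it covered, which were 8 of 10 of the plasminogen activator system and 10 of 11 ADAM proteases with BRD9, 11 of 17 other proteases and inhibitors with BAF250A and 12 of 19 with BRD9, and 7 of 12 substrates with BAF250A and 7 of 13 with BRD9. An unadjusted Wald p below 0.05 in that direction was held by Anxa2 (higher with BRD9) and Bsg (lower with BRD9) alone.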

How the data were processed

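RNA from C2C12 cells was sequenced by a contractor in 3 groups of 2 libraries. Per the submitters' processing notes, the authors' tools were DESeq2, RSEM, Bowtie, StringTie and HISAT with mm10 as the build, and neither roles nor versions are stated. Per the file headers, each of the 2 tables gives the authors' mean normalized count per gene (a signal averaged over the 4 libraries of a comparison), a log2 fold change with its standard error on the log2 scale, a Wald score, a p-value and an adjusted p-value. Calls are the authors' Wald test at an adjusted p below 0.05, Benjamini-Hochberg adjusted. No counts per library are in the tables, so no count model was fitted here.

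Whole reads of each library were solved from both tables' means and fold changes: 16943 of 17128 genes attempted (98.9%) had a single solution, of which 14874 gave both deposited fold changes within 1e-06. For the others the means alone left 1 solution, and the largest deviation of a member with a mean of 10 or more was 1.4e-06 on the log2 scale. A further 173 genes with a mean above 30000 were not attempted. The scrambled libraries are those that both tables share, which also sets the sign: positive is higher in the knockdown. The solver was tested on simulated data with reads in every group and with levels mostly below those of the deepest members. It was not tested on genes without a read in a group. Reads were put on 1 scale by median-of-ratios size factors. As an alternative added after seeing the data, limma 3.58.1 (R 4.3.3) with a trend was fitted to log2 of normalised reads plus 1 for 14025 genes with a mean of 10 or more, also without each library. The difference between knockdowns was a two-sided z test of the deposited fold changes, Benjamini-Hochberg adjusted over 16311 genes. The deposited fold changes are drawn towards 0: their median ratio to the log2 ratio of solved means was 0.969 for BAF250A and 0.951 for BRD9.

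Shared 31-base words were counted over annotated exons, since neither strand use nor the handling of shared reads is given in the sources used here. Intervals and floors cover counting error only and take each read as counted independently. The excess of even low counts in the knockdown libraries puts this in doubt, so intervals and floors may be too narrow. Nothing says how the duplicates were cultured apart, so the p-values measure the spread between these libraries. All members are accounted for, with values in full for those called. The members and lists were chosen with earlier results of these data known. A gene of the related lists is not reported here.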

Additional observations from a re-analysis of the deposited data

Results flagged for a closer look

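Of the members, 2 differed between the knockdowns by the z test of the deposited fold changes. The log2 difference of Adamtsl2, BAF250A minus BRD9, was -5.88, with 0 and 7.26 normalised reads in BAF250A knockdown, 591 and 747 in BRD9 knockdown, and 202 and 325 with scrambled shRNA. That of Adamts15 was -5.39, with 0 and 2.42 normalised reads in BAF250A knockdown, 104 and 113 in BRD9 knockdown, and 3.62 and 8.72 with scrambled shRNA. In limma fits of the solved reads without 1 library both stayed called, with log2 differences from -9.38 to -6.33 for Adamtsl2 and from -6.78 to -5.00 for Adamts15.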

How the results depend on the processing

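No call of a member changed direction under the alternatives run. With BAF250A 27 members were called, 17 under Bonferroni and 5 with Wald scores divided by their robust SD. With BRD9 14 were called, and 8 under each of these settings. Shares of all genes called are given above for the main tests and for limma with all libraries only. Counts of members under the other settings, here and below, therefore do not set the members apart from other genes. The difference between knockdowns called 2 members, 1 at an adjusted p below 0.01, 0 under Bonferroni, 1 with genes of a mean of 10 or more, 7 with scores divided by their robust SD (0.858), 8 with a covariance for the shared controls and 6 with limma. Without 1 library, limma called 19 to 25 members with BAF250A, 10 to 16 with BRD9 and 4 to 10 for the difference. Such a fit assumes that the lone library varies like the other groups. The median log2 fold change of the members was -0.071 with BAF250A, 0.246 over members with a mean of 10 or more, 0.238 with limma and 0.123, 0.133, 0.177 and 0.317 with limma without 1 library. With BRD9 it was 0.141, -0.147 with no filter on low counts and between -0.073 and 0.229, with -0.022 without BRD9 library 2, with limma without 1 library. Both medians thus changed sign, and the cause was not tested. Centring on genes with a mean of 100 or more shifted fold changes by 0.03 and 0.05. No paired analysis was possible because the solved libraries could not be tied to the replicate letters. With 2 libraries a group, the smallest log2 fold change of a called member, by size, was -1.16 with BAF250A (Mmp9) and 1.66 with BRD9 (Timp3) in the authors' deposited tables.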

Other observations

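The duplicates of BRD9 knockdown differed widely for some members. Adamts16, a protease of unsettled substrates, had 41.3 and 593 normalised reads in the BRD9 libraries, a ratio of 14.4, and 232 and 374.9 in the BAF250A libraries, a ratio of 1.62, against 447 and 333 with scrambled shRNA. Adamts17 differed by 5.9-fold and Mmp3 by 5.34-fold between the BRD9 libraries. With scrambled shRNA the widest gap was in Adamts6, at 870 and 183 normalised reads, a ratio of 4.75. Over 2-fold gaps between duplicates were found in 14% of the 43 members with BAF250A, 25.6% with BRD9 and 23.3% with scrambled shRNA, beside 6.65%, 18.3% and 39% of all 14025 genes.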
